A study of Mus musculus with 14 samples.

Results

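The Hox genes of the mouse stand in 4 clusters, and their chromatin was described through 30 H3K27ac regions and 7 ONECUT2 sites. A region or site counted as a Hox member where the nearest protein-coding gene span within 100 kb carried the name Hoxa, Hoxb, Hoxc or Hoxd with a number. By this rule 30 of 55050 H3K27ac regions and 7 of 7268 listed ONECUT2 sites belonged to the 39 Hox genes. The Hoxa cluster on chromosome 6 held 14 regions and 4 sites, the Hoxb cluster on chromosome 11 held 5 regions and 1 site, the Hoxc cluster on chromosome 15 held 7 regions and 1 site, and the Hoxd cluster on chromosome 2 held 4 regions and 1 site. Of the 14 Hoxa regions, 9 lay within 10 kb of a Hox gene.

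Hox genes encode homeodomain transcription factors that give cells their place along the head-to-tail axis. Their order on the chromosome follows the order of their domains in the body, with low numbers (paralog groups) anterior and high numbers posterior, and in adult gut a Hox profile persists as a record of the segment. Silent stretches of a cluster are held by Polycomb complexes, which methylate H3K27, while active stretches carry acetylation at the same residue (H3K27ac), the mark of active promoters and enhancers. Here paralog groups 1 to 3 are called anterior, 4 to 8 central and 9 to 13 posterior.

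All libraries came from small intestinal organoids, cultures of gut epithelium grown from stem cells, of line26 (wild type, Lgr5GFPDTR/+), derived from 1 female mouse. The RANKL organoids spent 3 days in ENR medium with CHIR99021 at 3 µM, which activates the Wnt pathway, and valproic acid at 1.5 mM, which blocks histone deacetylases, then 1 day in ENR alone and 6 days with 100 ng/mL RANKL, the cytokine that induces microfold (M) cells. The ENR controls stayed in ENR medium, which supplies EGF, Noggin and R-spondin 1 and was common to both arms. H3K27ac and ONECUT2, a CUT homeodomain factor, were profiled by ChIPmentation (immunoprecipitation with adapter insertion by the Tn5 transposase) in 3 RANKL and 3 ENR libraries each, from 3 independent differentiation experiments. The comparison is of the whole protocol with ENR medium, and the parts of CHIR99021, valproic acid and RANKL cannot be told apart.

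The RANKL libraries were shallower, with 2745451 to 3902301 H3K27ac reads in regions, against 5434172 to 9160267 reads in the ENR libraries. Summed per gene, 25.0% of all genes tested were called higher and 26.9% lower in H3K27ac. M cell markers set the arms apart as labelled: 7 of 8 were higher by edgeR, with summed H3K27ac of 639 to 698 CPM in RANKL libraries and 242 to 257 CPM in ENR libraries. All 10 intestinal epithelial markers had regions, at 2191 to 2293 CPM in RANKL libraries and 2115 to 2305 CPM in ENR libraries, with 4 called higher and 5 lower. Of 12 markers of mesenchyme, a tissue that uses Hox genes widely, 10 had a region (none was assigned to Lum or Twist1), 5 were called higher and 0 lower, with sums of 386 to 402 CPM in RANKL libraries and 303 to 326 CPM in ENR libraries. Leukocyte markers summed to 196 to 204 CPM in RANKL libraries and 149 to 179 CPM in ENR libraries (7 of 9 with a region, 4 higher, 1 lower), and endothelial markers to 517 to 525 CPM in RANKL libraries and 466 to 482 CPM in ENR libraries (7 of 7, 4 higher, 3 lower). The part of these shifts in the Hox values below was not tested.

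The letters under the acetylated Hox promoters differed widely, and 3 windows are printed because the results below turn on the regions over them. RefSeq (GRCm38.p6) gives windows of 250 bases before to 50 after a gene start for 22 of the 39 Hox genes, 24 windows in all, and 4 of them, those of Hoxa5, Hoxa10, Hoxd4 and Hoxd8, touched an H3K27ac region. The Hoxa5 window (chr6:52204538-52204837, minus strand) lies in the Hoxa region whose fall had the lowest adjusted p, and its 29 CpG pairs are in capitals. The Hoxa10 window (chr6:52240805-52241104, minus strand) holds 12 CpG pairs, and capitals mark the 21 bases that a listed ONECUT2 site covers. In the Hoxd4 window (chr2:74721728-74722027, plus strand), with 4 CpG pairs, capitals mark every match of the motifs named below.
Hoxa5: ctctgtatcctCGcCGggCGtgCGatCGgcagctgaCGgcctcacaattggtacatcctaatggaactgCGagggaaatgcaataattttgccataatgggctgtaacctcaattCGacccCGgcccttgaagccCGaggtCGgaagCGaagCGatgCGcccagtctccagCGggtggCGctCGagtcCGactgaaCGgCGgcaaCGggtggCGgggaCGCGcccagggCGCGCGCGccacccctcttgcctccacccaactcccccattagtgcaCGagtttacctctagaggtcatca
Hoxa10: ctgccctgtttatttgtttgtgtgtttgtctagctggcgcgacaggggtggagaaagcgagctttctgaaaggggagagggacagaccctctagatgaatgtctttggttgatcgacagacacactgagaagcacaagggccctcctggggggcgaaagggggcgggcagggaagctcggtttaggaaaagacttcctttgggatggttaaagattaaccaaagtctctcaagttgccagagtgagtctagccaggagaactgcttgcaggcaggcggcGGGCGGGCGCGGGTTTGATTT
Hoxd4: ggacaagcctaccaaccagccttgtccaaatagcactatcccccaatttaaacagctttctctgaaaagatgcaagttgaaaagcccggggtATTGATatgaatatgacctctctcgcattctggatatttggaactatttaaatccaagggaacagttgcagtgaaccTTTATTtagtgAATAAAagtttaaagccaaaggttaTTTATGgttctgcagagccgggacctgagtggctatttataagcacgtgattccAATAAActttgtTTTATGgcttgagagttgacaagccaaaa

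The median was 14 CpG pairs over the 24 Hox windows and 7 over the 32851 windows of all genes, so Hoxa5 lies above both medians and Hoxd4 below both. Motifs were searched on both strands as plain letters. ATTGAT and ATCGAT stand for ONECUT factors, TTTATG and TTTATT for CDX factors, and TGATTNAT, which can share letters with ATTGAT, for PBX-HOX pairs. ATTGAT was in 6 of 24 Hox windows (25.0%) and in 7.54% of all windows, and ATCGAT in 2 Hox windows (8.33%) and in 0.925% of all windows. Hox windows held TTTATG in 5 cases (20.8%), against 11.9% of all windows, TTTATT in 5 cases (20.8%), against 19.6%, and TGATTNAT in 2 cases (8.33%), against 3.22%. Among the 4 windows under regions, the Hoxd4 window had 1 ATTGAT, 2 TTTATG and 3 TTTATT matches, the Hoxd8 window 2 ATTGAT matches, the Hoxa10 window 1 TTTATT match and the Hoxa5 window no match of any of them.

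The clusters also encode microRNAs, which are shown because Mir196a-1 stands near a region called higher and Mir10a near a region called lower. The mature 5p sequences of the miR-10 and miR-196 families are printed from RefSeq, with the seed (bases 2 to 8) in capitals, which is ACCCUGU in miR-10 and AGGUAGU in miR-196. The miR-196 family is known to target Hox transcripts, Hoxb8 among them.
miR-10a-5p: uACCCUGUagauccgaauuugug
miR-10b-5p: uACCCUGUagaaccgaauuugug
miR-196a-5p: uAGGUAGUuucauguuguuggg
miR-196b-5p: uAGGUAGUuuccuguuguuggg

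Mir196a-1, which gives miR-196a, lay 284 bp from the region 6.5 kb upstream of Hoxb9, Mir10a 1284 bp from the Hoxb3/Hoxb4 region and Mir10b 3030 bp from the Hoxd3/Hoxd4 region. Mir196b lay inside the region 0.3 kb downstream of Hoxa10, and Mir615 inside the Hoxc5 region. Mir196a-2, the second source of miR-196a, lay 12339 bp from its nearest region, that of Hoxc11.

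H3K27ac fell at more Hox regions than it rose after the RANKL protocol, and the regions that rose were posterior. All 30 regions passed the filter on low counts. With edgeR's quasi-likelihood test (adjusted p under 0.05), 3 of 30 regions were higher, or 10.0%, and 10 were lower, or 33.3%, where 14.8% of the 54765 regions tested were higher and 21.0% lower. The other 17 were not called. The median log2 fold, RANKL over ENR, was -0.43 over the Hox regions and 0.06 over all regions. A log2 fold of at least 1 in size was reached by 1 region that was called higher, against 7.53% of all regions, and by 5 that were called lower, against 3.88%. Every RANKL library lay above every ENR library at 6 Hox regions, against 20.6% of all regions, and below every ENR library at 13, against 24.2%. Levels are scaled per library, so a lower level is relative to the other regions and not a measured absolute loss. Among other readings, it can mean fewer cells with the mark or less of it per cell, which bulk libraries cannot tell apart.

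By position, 0 of 13 anterior regions were called higher and 6 lower, with a median log2 fold of -0.50. Of 9 central regions 0 were called higher and 3 lower, with a median of -0.47. Of 8 posterior regions 3 were called higher and 1 lower, with a median of 0.23. The anterior class holds 3 regions inside group 3 genes that also lie over Hoxa4, Hoxa5 and Hoxa6 or Hoxd4, 2 of them called lower. With such regions counted as central, a choice made after seeing the data, 4 of 10 anterior and 5 of 12 central regions were called lower. The 8 posterior regions together had 180, 180 and 183 CPM in RANKL libraries, against 131, 125 and 134 CPM in ENR libraries, a ratio of means of 1.40. The rise of this sum lay in the 3 regions called higher. They averaged 47.9 and 40.8 CPM at Hoxb9 and 27.9 CPM at Hoxc11 in RANKL libraries, against 12.4, 29.3 and 15.3 CPM in ENR libraries. Of the other posterior regions 1 was called lower and 4 were not called. The 13 anterior regions together had 165, 174 and 147 CPM in RANKL libraries, against 225, 227 and 212 CPM in ENR libraries, a ratio of 0.732. Central regions summed to 33.1 ± 3.94 CPM in RANKL libraries and 47.8 ± 5.14 CPM in ENR libraries (SD, n = 3 each). With the 3 regions moved, central regions summed to 70.2 ± 7.86 CPM in RANKL libraries and 114 ± 6.94 CPM in ENR libraries, and anterior regions to 125 ± 9.86 CPM in RANKL libraries and 155 ± 6.80 CPM in ENR libraries. For each of these sums the arms did not overlap. CPM is the read count of a 2000 bp region scaled to a common TMM-normalised library size, and all regions have this width, so that their levels can be set side by side.

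**Figure D1:**
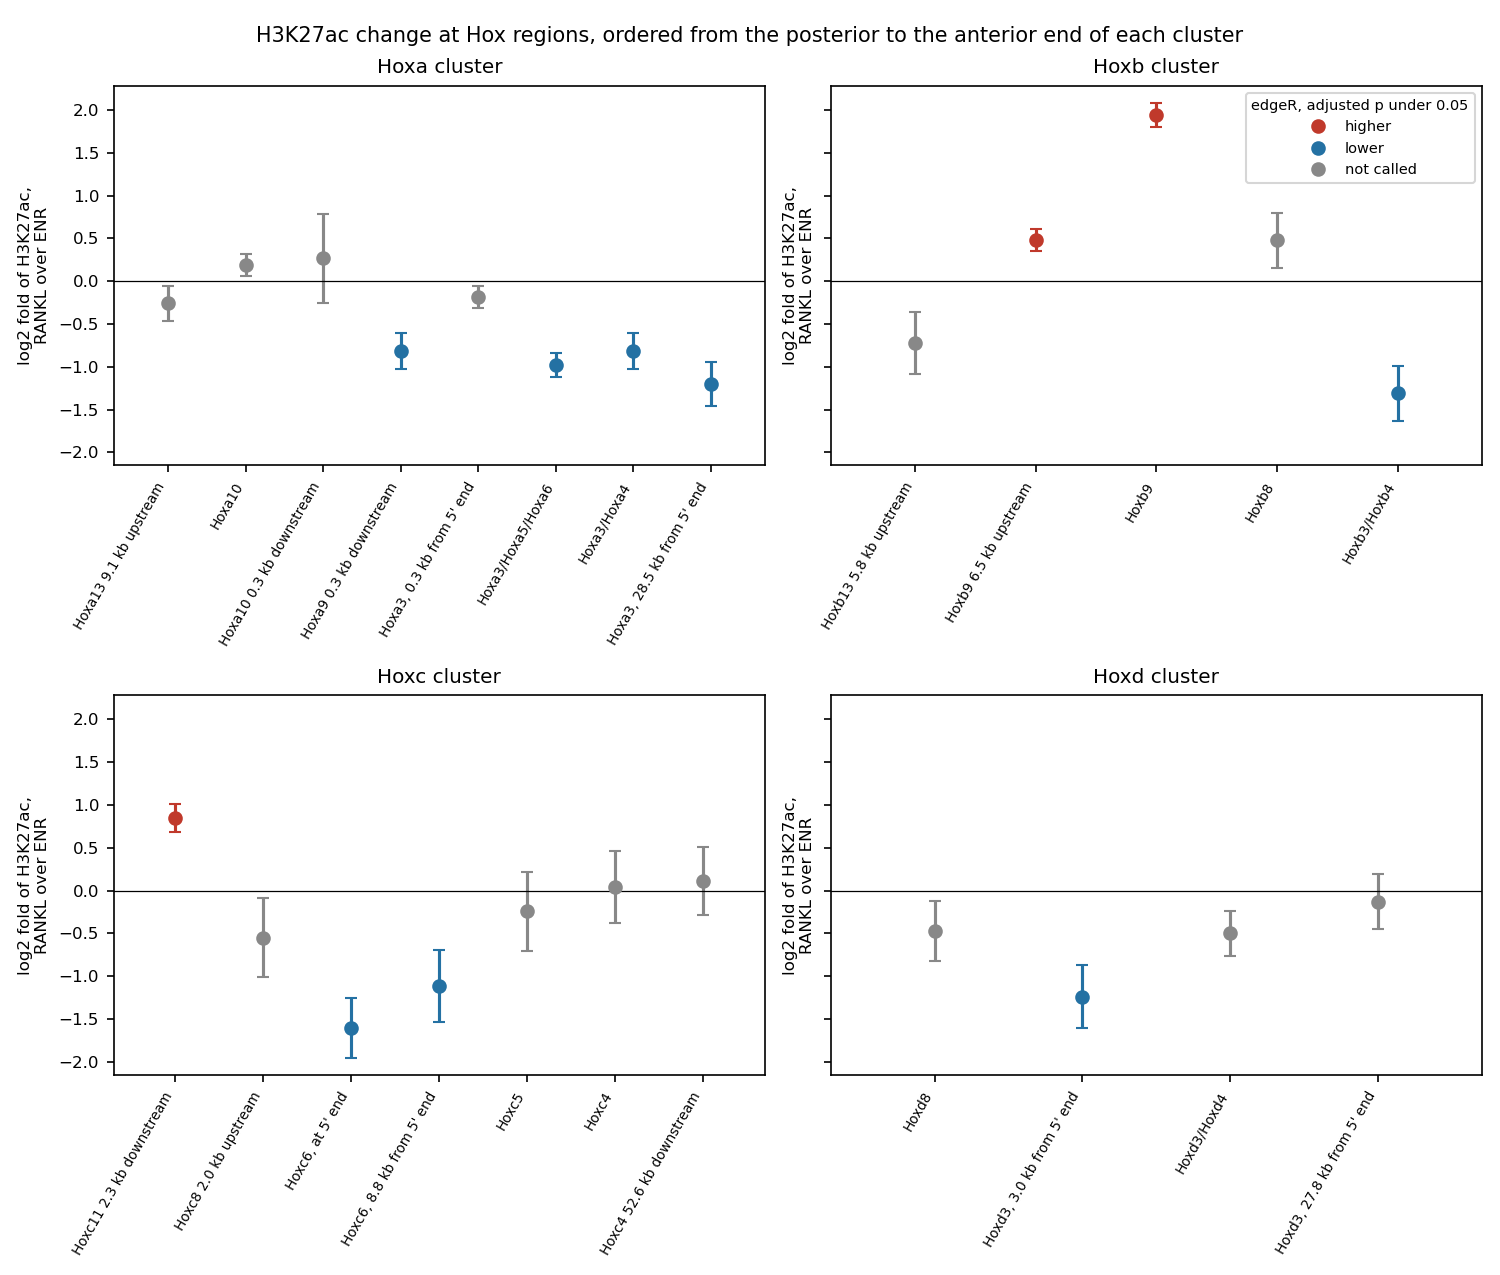
Log2 fold of H3K27ac (RANKL over ENR, y axis) at 24 of the 30 Hox regions, in 1 panel per cluster and ordered along the x axis from the posterior to the anterior end. Points are edgeR estimates and bars their standard errors, coloured by call; the 3 regions called higher are at Hoxb9 (1.94 and 0.48) and Hoxc11 (0.85), and the largest fall is at the 5′ end of Hoxc6 (-1.60).

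The Hoxb cluster held the only Hox region that rose by a log2 fold of over 1. This region covers the 5′ end of Hoxb9 (chr11:96270925-96272925), a posterior gene that helps pattern the thoracic skeleton. It had 48.9, 46.8 and 48.0 CPM in RANKL libraries 1 to 3, against 13.1, 12.9 and 11.1 CPM in ENR libraries 1 to 3. The 3 RANKL values lie close together and far above all ENR values. The log2 fold was 1.94 ± 0.14 (SE), or 3.85-fold, with an edgeR adjusted p of 1.59e-35. Its fold stood at percentile 98.2 among all regions tested. With RANKL it had the highest level of the 30 Hox regions (percentile 91.9 among all regions), and in ENR it ranked 13 of 30 (percentile 59.9).

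A second region, 6.5 kb upstream of Hoxb9 and next to Mir196a-1 (chr11:96262880-96264880), also rose. It had 42.8, 38.6 and 41.0 CPM in RANKL libraries, against 27.4, 29.0 and 31.5 CPM in ENR libraries. Its arms did not overlap either, and its ENR level was the higher of the 2 Hoxb9 regions. The log2 fold was 0.48 ± 0.13 (SE, adjusted p 8.74e-04), which is smaller than that of the Hoxb9 5′ end 6.0 kb away.

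Farther along the cluster the sign turned. The Hoxb3/Hoxb4 region (chr11:96318558-96320558), 45.6 kb from the Hoxb9 region, lies over Hoxb4, a gene known for expanding blood stem cells, and inside the long span of Hoxb3. It had 2.86, 4.23 and 3.86 CPM in RANKL libraries, against 9.28, 8.91 and 9.38 CPM in ENR libraries. No RANKL value reached the ENR values, at a log2 fold of -1.31 ± 0.32 (SE, adjusted p 2.52e-04). Between these lies Hoxb8, which acts in blood and microglial lineages. Its region (chr11:96277962-96279962) had 7.14, 6.94 and 7.72 CPM in RANKL libraries, against 5.41, 4.73 and 5.63 CPM in ENR libraries. Although every RANKL value exceeded every ENR value, the log2 fold of 0.48 ± 0.32 was not called (adjusted p 0.243). The region 5.8 kb upstream of Hoxb13, the most posterior gene of the cluster, had 3.78 ± 1.44 CPM in RANKL libraries and 6.30 ± 0.914 CPM in ENR libraries (SD, n = 3 each) and was not called (log2 fold -0.72 ± 0.36, adjusted p 0.106), except with the trend of fold with signal removed (adjusted p 0.0194, in a range of 0.0194 to 0.400). No region lay over Hoxb1, Hoxb2, Hoxb5, Hoxb6 or Hoxb7.

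The reads of the Hoxb cluster therefore divided in another way in each arm. The Hoxb9 5′ end took 46.0%, 47.4% and 45.6% of them in RANKL libraries, against 21.0%, 20.9% and 17.5% in ENR libraries. The Hoxb3/Hoxb4 region took 3.55 ± 0.806% in RANKL libraries and 14.7 ± 0.194% in ENR libraries (SD, n = 3 each). Over its 5 regions the cluster summed to 106, 98.7 and 105 CPM in RANKL libraries, against 62.6, 61.5 and 63.2 CPM in ENR libraries. It was the only cluster whose sum lay above ENR in every RANKL library without overlap.

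**Figure D2:**
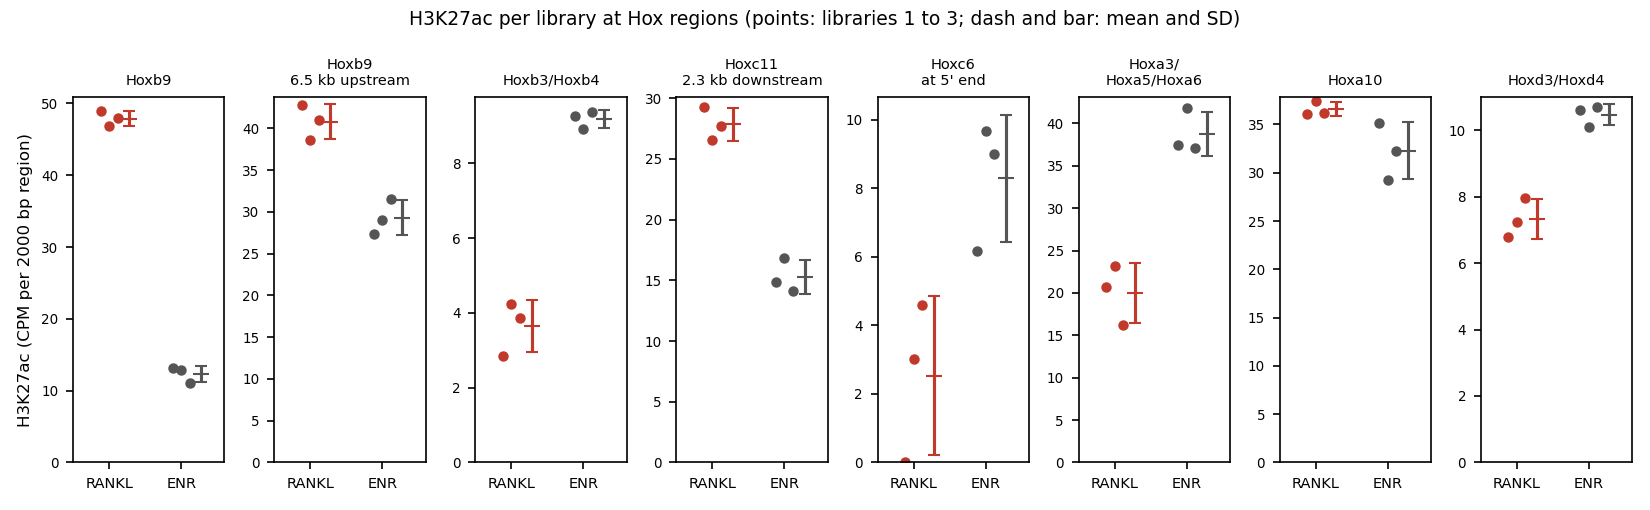
H3K27ac (CPM per 2000 bp region, y axes from 0, 1 scale per panel) in each library at 8 Hox regions, with RANKL left of ENR; points are libraries 1 to 3, and the dash and bar give mean and SD. RANKL libraries lie above ENR at both Hoxb9 regions and at Hoxc11, below ENR at Hoxb3/Hoxb4, Hoxc6, Hoxa3/Hoxa5/Hoxa6 and Hoxd3/Hoxd4, and a little above ENR at Hoxa10.

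In the Hoxc cluster 1 posterior region rose and 2 central regions fell. The region 2.3 kb downstream of Hoxc11 (chr15:102959011-102961011), a gene of the group that patterns sacral skeleton and kidney, had 29.3, 26.6 and 27.7 CPM in RANKL libraries, against 14.9, 16.8 and 14.1 CPM in ENR libraries. The arms were well apart, with a log2 fold of 0.85 ± 0.16 (SE, adjusted p 1.18e-06). This single region took 61.3 ± 6.20% of the reads of the cluster in RANKL libraries and 36.2 ± 3.21% in ENR libraries (SD, n = 3 each).

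Hoxc6, a central gene of the thoracic domain, lost H3K27ac at both of its regions. The region at its 5′ end (chr15:102997139-102999139) had 0, 3.02 and 4.58 CPM in RANKL libraries, against 6.18, 9.68 and 9.0 CPM in ENR libraries. RANKL library 1 held 0 reads there, where 3 reads would have given 1.07 CPM, and RANKL library 2 held 10 reads. The log2 fold was -1.60 ± 0.35 (SE, adjusted p 4.74e-05). The adjusted p was 0.215 under DESeq2 and 0.117 with limma on the authors' normalised values, the only alternatives of 12 in which the call was lost, over a range of 3.57e-06 to 0.215.

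The other Hoxc6 region, 8.8 kb from the 5′ end (chr15:103007057-103009057), had 2.14, 2.72 and 2.41 CPM in RANKL libraries, against 5.99, 5.06 and 4.88 CPM in ENR libraries. Its values rest on 6 to 10 reads in RANKL libraries and 26 to 46 in ENR libraries. The log2 fold of -1.11 ± 0.42 (SE) had an adjusted p of 0.0259. The call held in 7 of 12 alternatives and was lost without RANKL library 1 (0.0648), without RANKL library 3 (0.0703), without ENR library 1 (0.0809), without ENR library 2 (0.0519) and with DESeq2 (0.0549), over a range of 0.00228 to 0.0809. The remaining 4 Hoxc regions, at Hoxc8, Hoxc5 and Hoxc4 and 52.6 kb downstream of Hoxc4, averaged 2.40 to 4.21 CPM in RANKL libraries and 2.98 to 3.83 CPM in ENR libraries, their arms overlapped and none was called. Hoxc9, Hoxc10, Hoxc12 and Hoxc13 were assigned no region. The cluster sum, 45.6 ± 2.43 CPM in RANKL libraries and 42.5 ± 7.03 CPM in ENR libraries (SD, n = 3 each), overlapped between the arms.

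The Hoxa cluster carried the most H3K27ac of the 4, and 4 of the 5 regions from Hoxa3 to Hoxa9 fell. Its largest ENR signal, also the highest of all Hox regions in ENR, was a region over the start of Hoxa5, which acts in lung and gut development, with part of it over Hoxa6, inside the long span of Hoxa3 (chr6:52203512-52205512). It had 20.7, 23.2 and 16.2 CPM in RANKL libraries, against 37.5, 41.8 and 37.1 CPM in ENR libraries. No RANKL value came near the ENR values, at a log2 fold of -0.98 ± 0.14 (SE, adjusted p 1.42e-10). The CpG-rich Hoxa5 window printed above lies in this region.

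Inside Hoxa3, a gene needed for thymus and parathyroid, 2 other regions fell as well. The Hoxa3/Hoxa4 region had a log2 fold of -0.82 ± 0.21 (adjusted p 4.01e-04). The region 28.5 kb from the Hoxa3 5′ end (chr6:52182560-52184560) had 7.14, 2.42 and 7.23 CPM in RANKL libraries, against 11.4, 13.8 and 13.5 CPM in ENR libraries. RANKL library 2 was the lowest of the 6. The log2 fold was -1.20 ± 0.26 (SE, adjusted p 2.83e-05), and the adjusted p passed 0.05 in 1 of 12 alternatives, limma on the authors' normalised values (0.0541, lowest 1.62e-05). The region 0.3 kb downstream of Hoxa9, a posterior gene active in blood progenitors, was also lower, at -0.82 ± 0.21 (adjusted p 5.27e-04). Its call was lost without RANKL library 3 (0.0672) and on the authors' normalised values (0.0963), over a range of 1.40e-04 to 0.0963. By contrast the region 0.3 kb from the Hoxa3 5′ end had 28.9, 39.2 and 23.4 CPM in RANKL libraries, against 35.0, 34.9 and 32.3 CPM in ENR libraries. Its arms overlapped and it was not called (log2 fold -0.18 ± 0.13, adjusted p 0.318), although it was called lower without RANKL library 2 (-0.41, adjusted p 0.0250, in a range of 0.0250 to 0.969).

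One posterior region of the cluster held a high level in both arms. Hoxa10, a gene of lumbar and uterine patterning, had its region at the 5′ end (chr6:52239556-52241556), at 36.1, 37.4 and 36.2 CPM in RANKL libraries, against 35.2, 29.3 and 32.3 CPM in ENR libraries. All RANKL values lay above all ENR values, yet the log2 fold of 0.19 ± 0.13 (SE) was not called (adjusted p 0.240). It was called higher when TMM was replaced by library size (0.29, adjusted p 0.0462) and when the trend of fold with signal was removed (0.52, adjusted p 2.47e-04), in a range of 2.47e-04 to 0.526 over 12 alternatives.

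The region 9.1 kb upstream of Hoxa13, a hindgut and limb gene, varied widely within both arms. It had 5.71, 13.3 and 16.9 CPM in RANKL libraries 1 to 3, against 10.0, 13.8 and 21.2 CPM in ENR libraries 1 to 3. Its arms overlapped, and the region was not called (log2 fold -0.26 ± 0.20, adjusted p 0.336) but for a call without RANKL library 3 (-0.62, adjusted p 0.0428, in a range of 0.0428 to 0.950). Between same-numbered libraries, RANKL over ENR was 0.568, 0.966 and 0.797. With the replicate block in edgeR the log2 fold was -0.33 and not called (adjusted p 0.236). The lowest of all 30 Hox regions in both arms was the one 0.3 kb downstream of Hoxa10 that holds Mir196b, at 2.25 ± 0.747 CPM in RANKL libraries and 1.87 ± 0.327 CPM in ENR libraries (SD, n = 3 each).

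The Hoxa sum was 205, 223 and 192 CPM in RANKL libraries, against 265, 266 and 261 CPM in ENR libraries, a ratio of means of 0.783. Within it the Hoxa10 5′ end took 17.7 ± 1.04% of the reads in RANKL libraries and 12.2 ± 1.14% in ENR libraries (SD, n = 3 each). The Hoxa3/Hoxa5/Hoxa6 region took 9.65 ± 1.08% in RANKL libraries and 14.7 ± 0.881% in ENR libraries.

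Of the 4 Hoxd regions, 3 lay over Hoxd3, which helps pattern the upper neck (1 of them also over Hoxd4), and 1 over Hoxd8; Hoxd1 and Hoxd9 to Hoxd13 were assigned none. The region 3.0 kb from the Hoxd3 5′ end (chr2:74714978-74716978) had 3.21, 4.23 and 1.69 CPM in RANKL libraries, against 9.66, 6.05 and 5.63 CPM in ENR libraries. It was the one Hoxd region called, and its arms did not overlap. The log2 fold was -1.24 ± 0.37 (SE, adjusted p 0.00360), and the call was lost without RANKL library 3 (0.0710) and without ENR library 1 (0.0699), in a range of 4.14e-04 to 0.0710.

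The highest Hoxd region, Hoxd3/Hoxd4 (chr2:74721040-74723040), under the CpG-poor Hoxd4 window printed above, had 6.78, 7.25 and 7.96 CPM in RANKL libraries, against 10.6, 10.1 and 10.7 CPM in ENR libraries. All RANKL values were below all ENR values, but the log2 fold of -0.50 ± 0.26 (SE) was not called (adjusted p 0.118), except with limma on the authors' normalised values (adjusted p 0.0192, in a range of 0.0192 to 0.222). Hoxd8 stood likewise at 4.42 ± 0.541 CPM in RANKL libraries and 6.12 ± 0.0998 CPM in ENR libraries (SD, n = 3 each), not called (adjusted p 0.302) except with limma on the same values (adjusted p 0.0250, in a range of 0.0250 to 0.456). The Hoxd sum was 20.0, 19.9 and 21.7 CPM in RANKL libraries, against 33.8, 27.7 and 29.1 CPM in ENR libraries, a ratio of 0.680 with no overlap. Over all 4 clusters the 30 regions summed to 376 ± 11.4 CPM in RANKL libraries and 399 ± 6.68 CPM in ENR libraries (SD, n = 3 each).

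**Figure D3:**
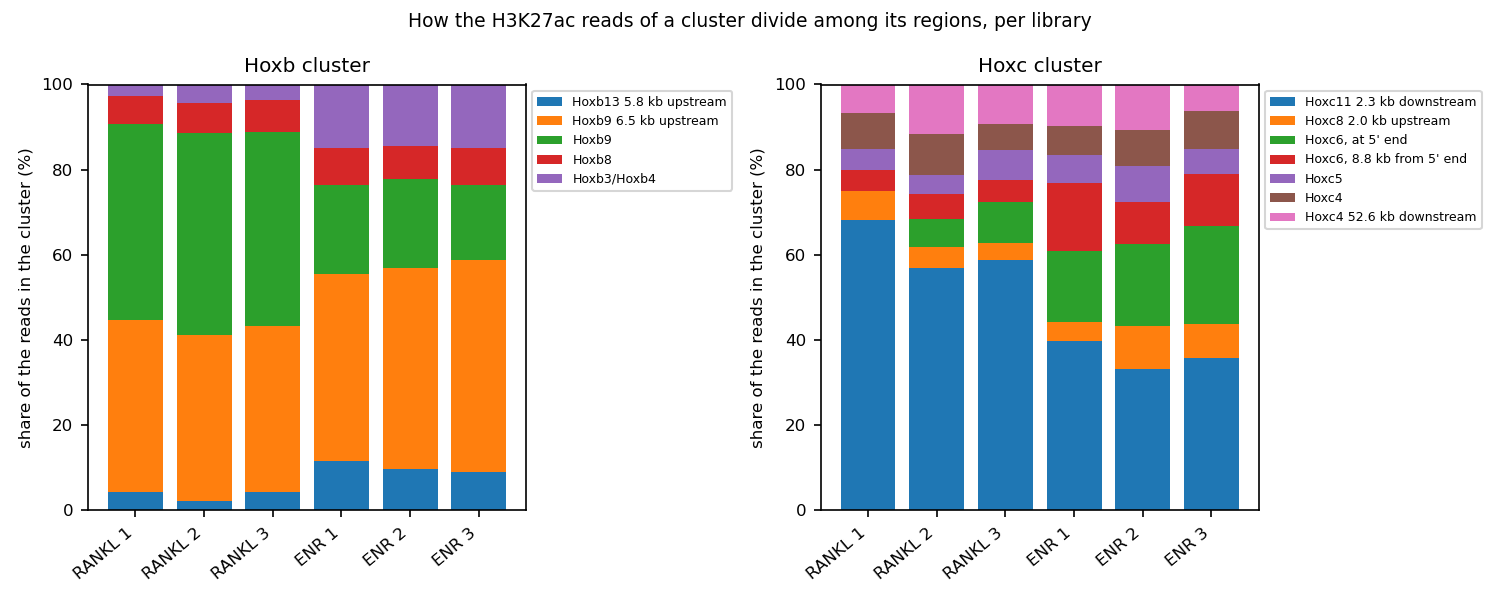
Share (%) of the H3K27ac reads of the Hoxb cluster (left) and the Hoxc cluster (right) that fell in each region, as stacked bars from 0 to 100, 1 bar per library with RANKL left of ENR. The Hoxb9 5′ end takes 45.6 to 47.4% in RANKL libraries and 17.5 to 21.0% in ENR libraries, and the region downstream of Hoxc11 56.8 to 68.3% in RANKL libraries and 33.3 to 39.7% in ENR libraries.

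Across all regions the fold depended on signal, so the Hox regions were set beside regions of their own level. Among all regions tested, the median log2 fold was 0.29 in the lowest decile of mean signal and -0.35 in decile 9. The 6 Hox regions in decile 9 had a median of 0.22, and the 4 in decile 7 a median of -0.82, where all regions of that decile had a median of -0.09. In decile 5 the median was -0.48 for 4 Hox regions and 0.13 for all regions. In decile 4 it was -0.35 for 5 Hox regions and 0.20 for all regions, and in decile 1 it was -0.10 for 4 Hox regions. The other deciles held at most 3 Hox regions each. Hox regions lay at percentile 0.864 to 91.9 of mean RANKL signal (median 38.9) and at 0.976 to 84.3 of mean ENR signal (median 54.0). By the mean over all 6 libraries, none stood in the highest decile.

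**Figure D4:**
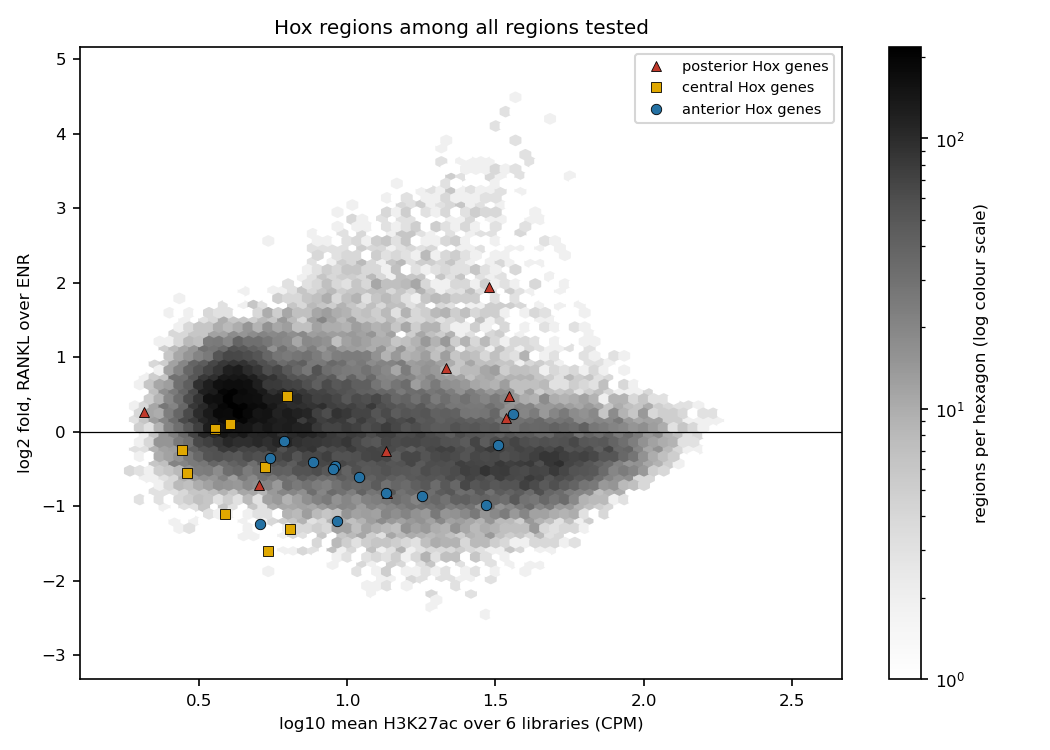
Log2 fold of H3K27ac (RANKL over ENR, y axis) against the log10 of mean CPM over the 6 libraries (x axis), with the 54765 regions tested as grey hexagons shaded by their number on a log colour scale and the 30 Hox regions as red triangles (posterior), yellow squares (central) and blue circles (anterior). The Hoxb9 5′ end stands at 1.94 and the Hoxc11 region at 0.85, while most anterior and central points lie below 0.

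Summed over all regions of a gene, 16 of the 39 Hox genes had an H3K27ac value and 23 had no region assigned. Of the 16 genes, 3 were called higher and 5 lower, where 25.0% of the 15903 genes tested were higher and 26.9% lower, and 8 were not called. The median log2 fold was -0.22 over the 16 genes and 0.01 over all genes. A called log2 fold of at least 1 was reached upward by 2 Hox genes (5.19% of all genes) and downward by 2 (1.55% of all genes). Hoxb9 had 101, 94.2 and 101 CPM in RANKL libraries, against 40.3, 42.7 and 42.4 CPM in ENR libraries over its 2 regions. This is a log2 fold of 1.24 ± 0.09 (SE, adjusted p 1.18e-19), with no overlap. Hoxc11, with its 1 region, rose by 1.00 ± 0.17 on the log2 scale (SE, adjusted p 4.08e-07), where the fold of that region was 0.85. Gene and region values differ in scale for all Hox genes because TMM factors were computed apart. RANKL factors were 1.0189 to 1.0633 over regions and 0.9829 to 0.9979 over genes. ENR factors were 0.9526 to 0.9926 over regions and 1.0024 to 1.023 over genes.

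Hoxa10 was the third gene called higher, with 41.2, 43.9 and 44.4 CPM in RANKL libraries, against 36.5, 32.1 and 34.0 CPM in ENR libraries. Its arms were apart by a small log2 fold of 0.35 ± 0.12 (SE, adjusted p 0.0123), and the call was lost without ENR library 2 (0.0691, in a range of 4.59e-05 to 0.0691). Neither of the 2 Hoxa10 regions was called, at log2 folds of 0.19 and 0.27. The gene fold exceeds both because the TMM factors of the 2 fits differ. The genes called lower were Hoxc6 (-1.24 ± 0.28), Hoxb4 (-1.16 ± 0.32), Hoxa9 (-0.67 ± 0.23), Hoxa3 (-0.51 ± 0.09) and Hoxd3 (-0.41 ± 0.17, SE throughout). With regions within 2 kb of a gene end Hoxa3 had a log2 fold of 0.15 and was not called (adjusted p 0.347, in a range of 6.73e-08 to 0.347). Of these 5, Hoxa9 lost its call without RANKL library 3 (adjusted p 0.188), without ENR library 1 (0.0864) and with regions within 2 kb of a gene end (0.0607), in a range of 0.00109 to 0.188, and Hoxd3 lost it in 6 of 13 alternatives, among them without RANKL library 1 (0.113), RANKL library 2 (0.0871) and ENR library 1 (0.181), in a range of 0.0262 to 0.181. Among the 8 genes not called were Hoxa13, Hoxb8, Hoxb13, Hoxc4, Hoxc5, Hoxc8 and Hoxd8, with log2 folds of -0.57 to 0.63.

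The study asked what part ONECUT2 plays in the RANKL-driven differentiation of enterocytes and M cells, and its sites at the Hox clusters were all listed as higher with RANKL. The authors' deposited table held 7 Hox sites, all with a positive fold, where 93.9% of the 7734 sites that its ranks imply were listed as higher. A positive fold was given to 7261 of the 7268 sites listed in the authors' deposited table, so that 7 of 7 sets the Hox sites apart from no other listed sites. The median log2 fold in the authors' deposited table was 1.27 over the 7 Hox sites and 1.86 over all 7268 listed sites.

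One site lay 0.47 kb from Hoxa2, a gene of hindbrain and second branchial arch identity (chr6:52161542-52161942). The authors' deposited table listed it with log2 means of 4.78 with RANKL and 3.53 in the control and a log2 fold of 1.20 (FDR 0.00491). It overlapped no H3K27ac region. Hoxa2 was assigned no H3K27ac region, and none lay over its span.

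Of the 30 Hox regions, 5 overlapped a listed ONECUT2 site by at least 1 bp, or 16.7%, where 5.32% of all regions did. In the authors' deposited table the site at the Hoxa10 5′ end had a log2 fold of 1.72 (FDR 5.93e-04), that at Hoxb8 1.46 (FDR 0.00119), that in Hoxc6 1.27 (FDR 0.00469) and that in Hoxd3 1.16 (FDR 0.0133). In H3K27ac, of the 5 regions 0 were called higher and 1, in Hoxc6, was called lower, where 14.8% of all regions tested were higher and 21.0% lower. The Hoxd3 region, 27.8 kb from the 5′ end, had 5.00, 4.53 and 7.72 CPM in RANKL libraries, against 7.34, 5.39 and 6.75 CPM in ENR libraries. The arms overlapped and the region was not called (log2 fold -0.13 ± 0.32, adjusted p 0.796). None of the 3 regions called higher, at Hoxb9 and Hoxc11, overlapped a listed ONECUT2 site, where 5.32% of all regions did. These counts are too small to relate ONECUT2 sites to the change in H3K27ac, which was not tested. As the table lists no values per library, the spread behind these folds is not given here.

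**Figure D5:**
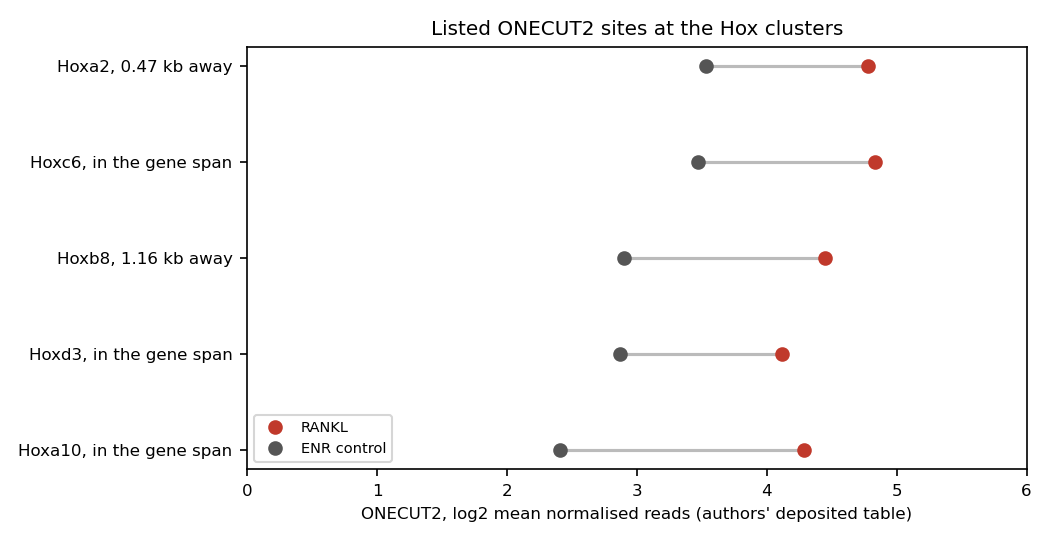
Log2 mean normalised ONECUT2 reads (x axis) in RANKL organoids (red) and ENR controls (dark grey) at 5 of the 7 Hox sites of the authors' deposited table, 1 row per site with a grey line joining its values. RANKL lies to the right of ENR at all 5 sites, with the widest gap at the Hoxa10 5′ end (4.29 and 2.41).

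Genes that work with or on the clusters were read from the same fit over genes, where 25.0% of all genes tested were called higher and 26.9% lower. Of 9 TALE cofactors with a region, the homeodomain partners of HOX proteins, 5 were called higher and 2 lower (median log2 fold 0.17). Pbx4 (0.80 ± 0.13, adjusted p 2.52e-07), Meis3 (0.62 ± 0.20, adjusted p 0.00789) and Pknox2 (0.54 ± 0.14, adjusted p 0.00104) rose, and Pbx3 fell by 0.56 ± 0.13 on the log2 scale (adjusted p 1.85e-04). Of 5 ParaHox genes with a region 2 were called higher and 0 lower (median 0.13), led by Cdx2, the master regulator of intestinal identity and an inducer of posterior Hox genes, with 323 ± 6.24 CPM in RANKL libraries and 265 ± 15.6 CPM in ENR libraries (SD, n = 3 each, log2 fold 0.29 ± 0.05, adjusted p 1.96e-06).

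Retinoic acid, which induces anterior Hox genes, was represented by 13 genes with a region, 3 called higher and 4 lower (median 0.06). The synthesis enzyme gene Aldh1a2 rose by 1.67 ± 0.20 (adjusted p 8.70e-11) and the receptor gene Rarb by 0.83 ± 0.06 (adjusted p 1.48e-19) on the log2 scale. The receptor gene Rara fell by 0.88 ± 0.08 (adjusted p 5.19e-16) and Cyp26b1, whose product breaks retinoic acid down, fell by 1.10 ± 0.21 (adjusted p 1.07e-05). Of the other genes called, Rdh10 was higher (0.42 ± 0.07, adjusted p 9.59e-08). Aldh1a1 (-0.21 ± 0.06, adjusted p 0.00378) and Aldh1a3 (-0.23 ± 0.10, adjusted p 0.0462), of the same enzyme family as Aldh1a2, were lower.

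Of 24 Polycomb genes 6 were called higher and 8 lower (median -0.08), shares near those of all genes. Rbbp4 (-0.78 ± 0.11, adjusted p 2.04e-09), Phf19 (-0.66 ± 0.13, adjusted p 1.27e-05) and Phf1 (-0.54 ± 0.12, adjusted p 1.25e-04), all partners of the H3K27 methyltransferase, fell, and of the genes that rose Phc3, from the other Polycomb complex, had the lowest adjusted p (0.46 ± 0.07, adjusted p 1.80e-08). Of 14 Trithorax-group and H3K27 demethylase genes 5 were called higher and 4 lower (median 0.09), with Crebbp (0.36 ± 0.09, adjusted p 3.48e-04), an H3K27 acetyltransferase gene, and Kmt2c (-0.43 ± 0.08, adjusted p 1.35e-05) the smallest adjusted p in each direction. Among 7 CTCF and cohesin genes, whose products set loop borders inside the clusters, 3 were called higher and 1 lower (median 0.16), Smc3 at 0.71 ± 0.06 (adjusted p 2.71e-17) and Wapl at -0.57 ± 0.06 (adjusted p 3.99e-13).

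Of 16 genes that flank the clusters, 3 were called higher, 3 lower and 10 not called (median 0.08), no larger a share either way than over all genes. Evx2, next to Hoxd13, rose by 0.78 ± 0.31 (adjusted p 0.0313) on the log2 scale. Snx11, beyond the Hoxb cluster, rose by 0.59 ± 0.10 (adjusted p 3.99e-07), while Cbx1 on the same side fell by 0.47 ± 0.11 (adjusted p 1.70e-04).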

How the data were processed

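H3K27ac and ONECUT2 were profiled by ChIPmentation, per the labels' protocols, in 3 RANKL and 3 ENR libraries each. The 2 input libraries were not analysed here. The authors' H3K27ac table holds raw read counts for regions of 2000 bp, deposited without normalisation. A table headed as normalised was deposited as a score; its values equal the scaled natural log of the count plus 1 to within 5e-06 and were used in 1 alternative. For ONECUT2 the authors' deposited table lists log2 mean reads, log2 folds, p-values and FDR for sites with an FDR of up to 0.0496. Per the submitters' processing notes, DiffBind was used and coordinates are on mm10. No aligner, peak caller, counter or DiffBind version is given in the sources used here. Each region ends 2000 above its start, so its start may be counted from 0; coordinates are printed as deposited.

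Regions and sites went to the nearest of 21896 RefSeq (GRCm38.p6) protein-coding gene spans within 100 kb, and a region over several spans to the span with the longest overlap, then to the shorter gene. Exons and introns were not resolved, and the nearest gene need not be the one a region acts on. The 5′ ends follow the strand of each cluster in the RefSeq promoter table.

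Counts of all regions, and counts summed per gene, were tested with edgeR 4.0.16 (R 4.3.3; quasi-likelihood test, TMM, filterByExpr), two-sided, with Benjamini-Hochberg adjustment over all 54765 regions or 15903 genes and a threshold of 0.05. Only the Hox rows and the listed genes are printed, and some single Hox results are not reported here. The test was checked on simulated counts. Replicates are 3 independent differentiation experiments from 1 mouse line, so p-values measure the spread between experiments. The labels number the experiments 1 to 3 in both arms, which pairs the libraries by experiment; in the data the deviations of same-numbered libraries from their group means had correlations of 0.014, -0.027 and -0.007 over regions. Libraries of 1 group differed by more than sampling noise (chi-square per degree of freedom 1.80 to 2.06). The floor of 3 counts covers counting error only.

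Regions were named when called with a log2 fold of at least 1 in size, as the smallest adjusted p per direction or the highest mean of a cluster, or when an ONECUT2 site overlapped them; other regions were named after their values were seen. The protein motifs in the plan were not searched, since no protein sequences were used here. Listed genes were named when called with a log2 fold of at least 0.5 in size, or as the smallest adjusted p per direction. In the retinoic acid list every called gene was named. The Hox members and the lists were chosen with earlier results of these data known. Alternatives were library size only, DESeq2 1.42.0, no filter, the replicate block, removal of the trend with signal, limma 3.58.1 on the authors' score table, leaving out each library, and other distances and assignments.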

Additional observations from a re-analysis of the deposited data

How the results depend on the processing

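Of 485 values recomputed for the single Hox regions and genes reported, 431 kept their direction and their side of the threshold, 22 lost the call, 9 gained one and 23 changed sign; of these, 6 of 11 called regions and 4 of 8 called genes were called in every alternative. With the replicate block, 3 Hox regions were higher and 10 lower, 3 Hox genes higher and 5 lower, and 25 listed genes higher and 21 lower, and no call of a single Hox region or gene reported changed. Regions called higher numbered 5 with library size only and 5 with the trend of fold with signal removed. Regions called lower numbered 7 with DESeq2, 9 with library size only, 9 on the authors' score table and 11 with the trend removed, against 10. Leaving out each library gave 3 to 3 regions higher, 7 to 11 lower, 2 to 3 genes higher and 3 to 5 lower. Hox genes called higher and lower numbered 4 and 2 with regions within 2 kb of a gene end, 4 and 4 within 10 kb, and 3 and 8 when a region counted for every span it overlapped, against 3 and 5. With the highest-numbered span as a region's position, 5 central regions were called lower, against 3. Hoxa regions numbered 9 within 10 kb.

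Among values that were not called with all libraries, leaving out 1 library moved the log2 fold across 0 at the Hoxc4 region (-0.14 to 0.26), 52.6 kb downstream of Hoxc4 (-0.12 to 0.48), 27.8 kb from the Hoxd3 5′ end (-0.43 to 0.02), 0.3 kb from the Hoxa3 5′ end (-0.41 to 0.01) and upstream of Hoxa13 (-0.62 to 0.03), and for the genes Hoxa13 (-0.49 to 0.19), Hoxc8 (-0.70 to 0.09) and Hoxc5 (-0.41 to 0.03). With the trend removed, the sign changed at Hoxc4 (-0.32), downstream of Hoxc4 (-0.23), at the Hoxa3 5′ end (0.14), downstream of Hoxa10 (-0.17) and for the gene Hoxc4 (-0.10). On the authors' score table, where differences are in units of the scaled natural log and not log2, the sign changed at 3 regions. These were Hoxc4 (-0.14), downstream of Hoxc4 (-0.08) and downstream of Hoxa10 (-0.09). With regions within 2 kb of a gene end, the genes Hoxa3 (0.15) and Hoxc5 (0.08) became positive. The causes were not tested. Depth limits the low regions: RANKL libraries hold 0 to 19 reads in each Hoxc region other than that of Hoxc11.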
